A study of Homo sapiens with 6 samples.

Results

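The 53 genes described here carry symbols of the DEAD box and DEAH box RNA helicases, which does not establish that each acts on RNA. They were chosen by name, as the protein-coding genes of the GENCODE annotation on the hg19 (GRCh37) build whose symbol begins with DDX or DHX followed by a number, out of 19451 protein-coding genes, with copies on the Y chromosome left out. Sites of PAR-CLIP reads on the strand of each gene were assigned to coding sequence, 3'UTR, 5'UTR or intron by the midpoint of the site. PAR-CLIP crosslinks 4-thiouridine (4SU) in RNA to bound protein, and a crosslinked 4SU is read as a T-to-C conversion.

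All 6 libraries came from HEK293 cells, an established line of human embryonic kidney cells, fed with 4SU and irradiated with long-wave ultraviolet light, with RNA digested by RNase T1. The background libraries G20, G35 and G45 were 3 slices, cut at about 20, 35 and 45 kDa, from a gel of a FLAG purification out of cells that expressed FLAG-tagged GFP, a protein not known to bind RNA. HuR replicates 1 and 2 were FLAG purifications of HuR, the product of ELAVL1, and both proteins were expressed from a doxycycline-inducible construct. Total was RNA from lysates crosslinked in the same way, with no protein purified. Those lysates were treated with proteinase K, the RNA was depleted of ribosomal RNA, and only then was it partially digested with RNase T1. In the purified libraries a digestion step also followed the purification. Each slice and Total was a single library, the slices are different cuts rather than repeats, and nothing in the labels says whether the HuR replicates came from separate cultures, so that any p-value measures only the spread between these libraries.

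DEAD and DEAH box proteins use ATP to unwind RNA duplexes and to remodel RNA-protein complexes. Members act in splicing, ribosome assembly, mRNA export, translation and mRNA decay, and several are abundant in dividing cells. HuR binds U-rich and AU-rich stretches, mainly in introns and 3'UTRs, and is known for stabilising mRNAs. A site within a helicase gene therefore reports on the RNA of that gene as a substrate, and not on the helicase protein. More reads at a gene can come from more of its RNA or from more binding, and these cannot be told apart within 1 library.

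Total reads at sites ran from 6187300 (G35) to 38644636 (G20) per library, and reads placed in protein-coding genes from 2365567 (G35) to 21703776 (HuR replicate 2). The helicase genes held 9871 reads in G20, 8962 in G35, 10276 in G45, 11442 in HuR replicate 1, 110635 in HuR replicate 2 and 49139 in Total. As a share of reads in protein-coding genes these were 0.476 per 1000 in G20 (95% Wilson interval 0.467 to 0.486), 3.79 in G35 (3.71 to 3.87), 3.70 in G45 (3.63 to 3.77), 2.76 in HuR replicate 1 (2.71 to 2.81), 5.10 in HuR replicate 2 (5.07 to 5.13) and 5.72 in Total (5.67 to 5.77). The G20 share was lower than that of every other library, and the HuR replicates lay on either side of G35 and G45, so that the groups overlapped. Intervals cover counting error only, since PCR copies were not marked. The HEK293 markers VIM and LIN28B had exon reads in every library (VIM from 23 to 2268 and LIN28B from 13 to 627), PAX2 had from 0 to 22, and the markers of blood (PTPRC), liver (ALB) and pancreas (INS) had at most 41 exon reads in any library, with INS at 0 in all.

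Reads were found at 51 of the 53 genes in each slice, at 53 in HuR replicate 1 and in Total, and at 52 in HuR replicate 2. No member had 0 reads in all libraries. The lowest were DDX43 and DDX53, known from germ cells, with 22 and 4 reads over all 6 libraries. The 12 members with the highest mean over the libraries, as a share of the reads in protein-coding genes, were DDX31, DDX17, DHX8, DDX59, DDX6, DHX15, DDX39B, DDX46, DHX9, DDX21, DDX10 and DDX3X. DDX31, DHX8 and DDX59 stood in that list through a single intron site each. Reads from near-identical copies were not kept by the unique mapping, so that the levels of DDX3X, DDX11, DDX19A, DDX19B, DDX39A and DDX39B, which have a close relative or pseudogene, are uncertain.

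The sequences of these sites are shown first. A run of short windows from the HuR libraries is shown because HuR is known for binding U-rich RNA, and a set of slice sites because each held most of its gene's intron reads in the background. Each is written 5′ to 3′ on the strand of the gene, from GRCh37, with every T, the base at which conversions are counted, in capitals. The HuR windows span 30 bases centred on the peak of the conversion signal in a cluster. By the study's definition a cluster is a site with at least 5 reads and conversions at more than 1 position. The cluster used was the one with the most reads in HuR replicate 2 that replicate 1 shared. Windows are given for the 6 genes with the most HuR replicate 2 reads in 3'UTRs and the 4 with the most in introns. The genes of the 4 intron slice sites below were left out of the intron choice. Windows could overlap slice sites. In G20, G35 and G45 the intron windows had 1, 11 and 6 reads in DHX15, 3, 0 and 0 in DDX17, 0, 6 and 3 in DHX9 and 0 throughout in DDX46. The 3'UTR windows had 50, 61 and 102 slice reads in DDX17, 81, 33 and 68 in DDX6 and 22, 28 and 39 in DDX21. Those of DDX3X had 3, 12 and 15, of DDX18 0, 0 and 6 and of DDX5 0, 0 and 3. HuR replicate 1 had 191 reads in DDX17, 53 in DDX6, 34 in DDX21, 18 in DDX3X, 5 in DDX18 and 27 in DDX5.
DDX17 3'UTR, chr22:38881881-38881910, minus strand: acTTaaTTacaTTTTaaggaacacTgTcTT
DDX6 3'UTR, chr11:118620112-118620141, minus strand: TaggaaTTgTTaaaTggaaagaTgcTcTga
DDX21 3'UTR, chr10:70742711-70742740, plus strand: agcTTcaTTTaaaTTaTTTcaTcTgaTcaT
DDX3X 3'UTR, chrX:41197330-41197359, plus strand: TTaaaaaggcaTTagaaaagTTgcTTTTTT
DDX18 3'UTR, chr2:118589850-118589879, plus strand: TTTaaTTTTTTTaTcaaaaaTTaagTcaTc
DDX5 3'UTR, chr17:62495868-62495897, minus strand: TTaagTTggaTaTTTcTcTacaTTccTgaa
DHX15 intron, chr4:24553182-24553211, minus strand: agcaTcTacTTTcaTTTTcTTTTagaaacT
DDX17 intron, chr22:38886543-38886572, minus strand: TTTTaTaaTagTcaTccTTaggcTaccacT
DDX46 intron, chr5:134113632-134113661, plus strand: gTTTgaTaTcTTTgcTTacaTaTTaaccTT
DHX9 intron, chr1:182815801-182815830, plus strand: TTTTTggTTTTTagTaTTTTgTgTTgTgac
These windows held from 9 (DDX6) to 19 (DHX9) T among 30 bases. The longest run of T was 7 bases, in DDX18.

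The slice sites below are printed whole. The 4 intron sites were those with the most slice reads in the introns that the test called lower in HuR, and the DDX23 site, in coding sequence, was added because its conversions stood apart.
DDX31 intron, chr9:135494201-135494220, minus strand: gcgTgagggaaaggTgaaga
DHX8 intron, chr17:41565430-41565449, plus strand: aaggTcgTgggTTcgagacc
DDX59 intron, chr1:200607463-200607482, minus strand: TgTTcgaaTcccTccTTcTc
DDX49 intron, chr19:19032199-19032216, plus strand: aaaggcgaacTgggggaa
DDX23 coding sequence, chr12:49224449-49224473, minus strand: TacaTccaccgcaTTggccgcacgg
The DDX49 site held 1 T and the DDX31 site 2, against 8 in the DDX59 site. Each of the 5 sequences occurs once as written on the autosomes and chromosome X of GRCh37, counting either strand. Only uniquely mapping reads were kept, so a single match follows largely from the mapping and says nothing on where the reads came from. With a single T read as C, none of them had another match there, and with 2 or more T read as C the DDX59 sequence had 1. The Y chromosome, the mitochondrial genome and unplaced sequence were not searched, and no other mismatches were allowed.

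The question put to the region shares was where along the helicase transcripts each library's reads lay. Coding sequence held 39.9% of helicase reads in G20 (95% interval 39.0 to 40.9), 9.07% in G35 (8.49 to 9.68), 6.49% in G45 (6.03 to 6.98), 3.22% in HuR replicate 1 (2.91 to 3.56), 3.30% in HuR replicate 2 (3.20 to 3.41) and 42.4% in Total (42.0 to 42.9). Both HuR libraries were below all 3 slices, and G20 was close to Total. The 3'UTR share was 11.2% in G20, 6.46% in G35, 7.92% in G45, 19.3% in HuR replicate 1, 29.02% in HuR replicate 2 and 19.4% in Total. Both HuR libraries were above all 3 slices, although replicate 1 was level with Total. Introns held 46.8% in G20, 84.0% in G35, 85.3% in G45, 76.6% in HuR replicate 1, 67.3% in HuR replicate 2 and 36.5% in Total, so that the HuR values lay between those of the slices. The 5'UTR held at most 1.996% (G20). With each site counted once, whatever its reads, the order of the 3'UTR turned, with a mean of 7.53% over the HuR libraries and 13.0% over the slices. A permutation test of 2 against 3 libraries cannot give an exact p below 0.1, and no test was made of the shares.

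**Figure D1:**
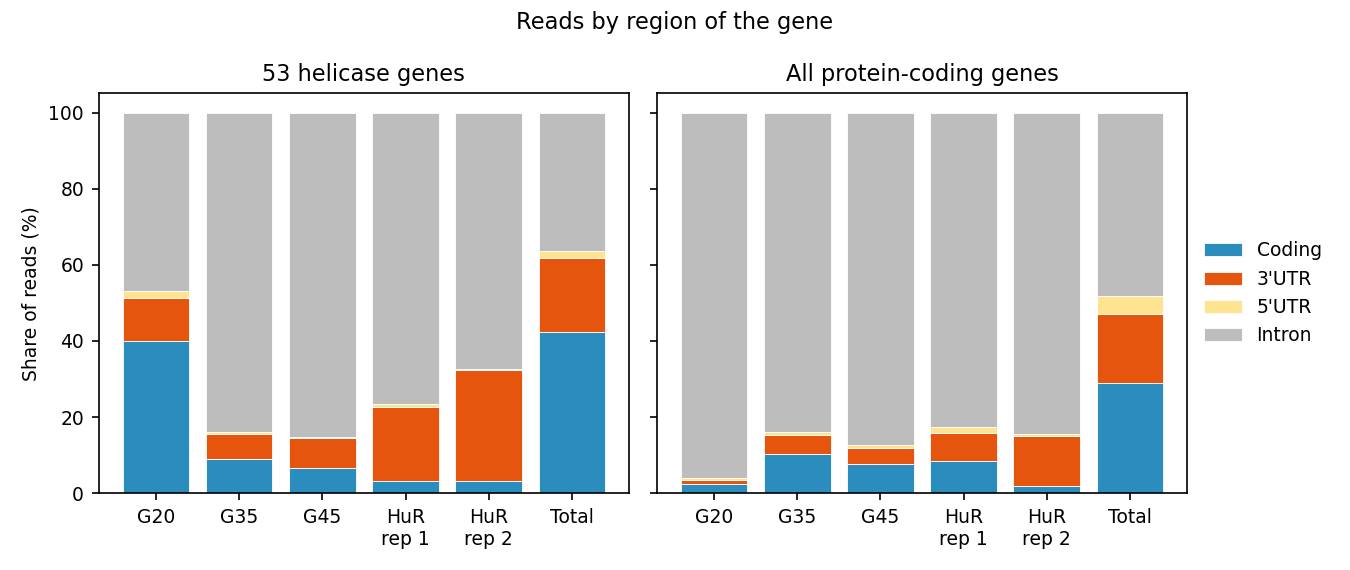
Share of reads (%, vertical axis) by region of the gene in each of the 6 libraries (horizontal axis), for the 53 helicase genes (left) and all protein-coding genes (right); colours mark coding sequence, 3'UTR, 5'UTR and intron. In the helicase genes the 3'UTR share was 19.3% and 29.02% in HuR against 6.46% to 11.2% in the slices.

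Among all protein-coding genes the coding share ran from 1.82% to 29.1% and the 3'UTR share from 0.898% to 18.0% over the 6 libraries. In G20 the coding share was 39.9% in the helicase genes and 2.47% in all genes, where introns held 96.1% of the G20 reads. The 3'UTR shares of the helicase genes were above those of all genes in every library. In HuR they were 19.3% against 7.31% in replicate 1 and 29.02% against 13.2% in replicate 2. In the slices they were 11.2% against 0.898% in G20, 6.46% against 4.80% in G35 and 7.92% against 4.26% in G45. In Total they were 19.4% against 18.0%. These are descriptions with no test.

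In the slices and in HuR, most of the 3'UTR reads came from a pair of genes. DDX17, a helicase of splicing and transcription that is closely related to DDX5, had 201, 157 and 228 reads in its 3'UTR in G20, G35 and G45, 946 and 11466 in HuR replicates 1 and 2, and 1307 in Total. DDX6, a helicase of mRNA decay and translational repression in P-bodies, had 417, 265 and 325 in the slices, 514 and 10049 in HuR and 2423 in Total. In HuR replicate 1 DDX17 held 42.7% and DDX6 23.2% of the helicase 3'UTR reads, in replicate 2 they held 35.7% and 31.3%, and in Total 13.7% and 25.4%. Without these genes the 3'UTR share fell to 5.59% in G20, 1.88% in G35, 2.73% in G45, 8.82% in HuR replicate 1, 13.5% in HuR replicate 2 and 14.8% in Total, and both HuR libraries remained above all 3 slices but below Total. Set against all genes, the HuR shares were then 8.82% against 7.31% and 13.5% against 13.2%. G20 was also above all genes, at 5.59% against 0.898%, and G35, G45 and Total were below them.

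Per length of 3'UTR, DDX17 had 4586 reads per kb in HuR replicate 2, DDX6 2253, DHX15, a helicase that takes spliceosomes apart, 1228, DDX21, a helicase of ribosomal RNA synthesis and processing, 926, and DDX18, also of ribosome assembly, 902. DDX3X, which acts in translation initiation, had 519 reads per kb, and DDX5, a helicase of splicing and transcription, had 489. In HuR replicate 1 the order began with DDX17 (378 reads per kb) and DDX6 (115), followed by DDX21 (62.4) and DDX18 (42.3). In Total, DDX39B, a helicase of splicing and mRNA export with a short 3'UTR of 218 bases, was at 1628 reads per kb, above DDX6 at 543 and DDX17 at 523.

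The share of a gene's coding and 3'UTR reads that lay in the 3'UTR does not depend on the scaling of libraries. It was computed for the members with at least 10 such reads in each HuR library and slice, a rule set after values were seen. Of 15 members that passed, 14 had a share above all 3 slices in both HuR libraries. Among all 2297 genes that passed the same read minimum 61.3% did so, and 0.566% were below all slices in both, against 0 members. The median over the 15 members was 83.7% in HuR replicate 1 and 89.1% in HuR replicate 2, against 12.8% in G20, 26.2% in G35 and 50% in G45. The medians over all 2297 genes were 87.9% and 92.4% in HuR and 30.6%, 52.7% and 53.8% in the slices, so that the members' medians were lower in each of these libraries.

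**Figure D2:**
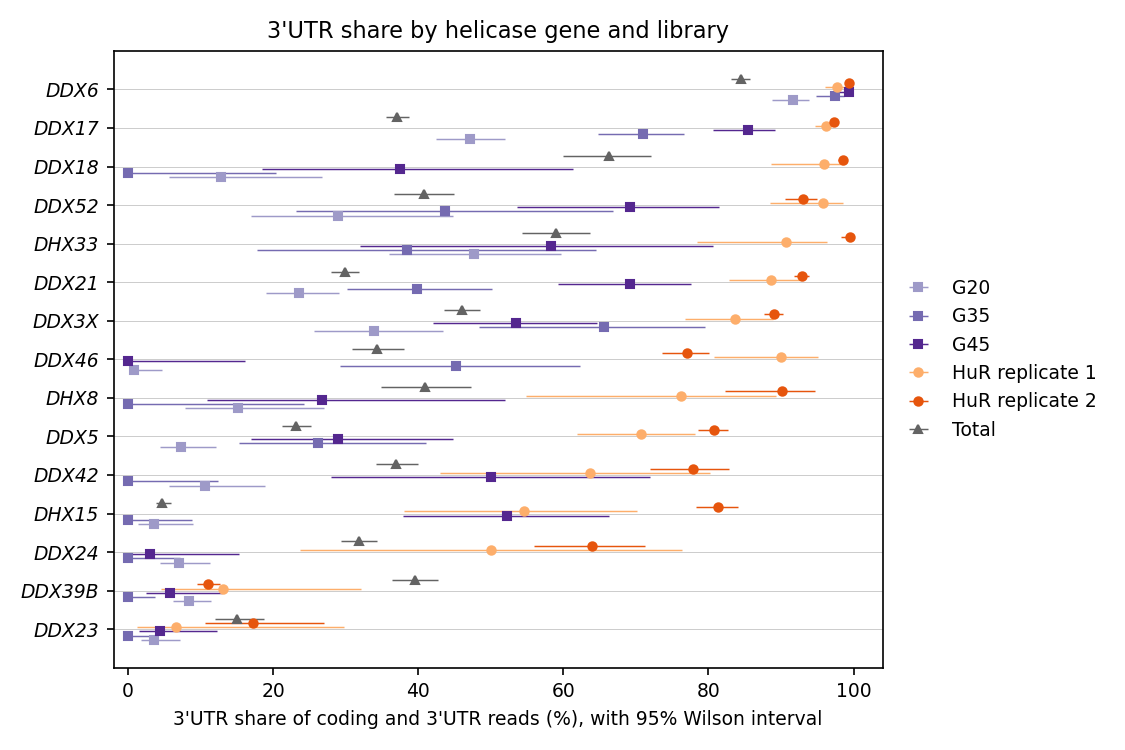
3'UTR share of coding and 3'UTR reads (%, horizontal axis) for the 15 helicase genes with at least 10 such reads in each HuR library and slice; squares are slices, circles HuR replicates, triangles Total, and bars 95% Wilson intervals that cover counting error only. Of the 15 genes, 14 have both circles to the right of all 3 squares, and DDX6 is the exception.

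DDX18, a helicase of ribosome assembly, had a share above all slices in both HuR libraries. That share in the slices G20, G35 and G45 was 12.8%, 0% and 37.5%, against 95.9% in HuR replicate 1, 98.5% in HuR replicate 2 and 66.2% in Total. Its 3'UTR had 5, 0 and 6 reads in the slices, 70 and 1493 in HuR and 153 in Total, so that both HuR libraries were higher and the slices near the limit of 3 reads that a count of 0 allows. DDX17 had 47.2%, 71.0% and 85.4% in the slices, 96.1% and 97.3% in HuR and 37.1% in Total. DDX3X had 34.0%, 65.6% and 53.5% in the slices and 83.7% and 89.1% in HuR, with 46.0% in Total. DDX5 had 7.34%, 26.2% and 28.9% in the slices and 70.7% and 80.7% in HuR, with 23.2% in Total. In these genes HuR was above both the slices and Total.

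DDX6 was already high in the slices, at 91.6%, 97.4% and 99.4%, against 97.7% and 99.4% in HuR, and only Total was apart at 84.5%. DDX39B and DDX23, both helicases of the spliceosome, were low throughout. DDX39B had 8.44%, 0% and 5.81% in the slices, 13.0% and 11.01% in HuR and 39.5% in Total, so that HuR was above the slices but below Total. Most coding reads of DDX39B in HuR replicate 2 came from 1 site, described with the coding sequences, and without it the share there was 36.7%. DDX23 had 3.54%, 0% and 4.41% in the slices, 6.67% and 17.3% in HuR and 15.04% in Total.

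The test over libraries asked which helicase gene regions had more or fewer reads in HuR than in the slices. It was edgeR's quasi-likelihood test on reads per gene and region over 20935 regions of all genes, with Benjamini-Hochberg adjustment and a call at an adjusted p under 0.05. In coding sequence, 10 of the 30 members tested were called lower in HuR and 0 higher, where 31.8% of all 3274 coding regions tested were called lower and 0% higher. The members' median log2 fold change (HuR over slices) was -3.90, and that of all coding regions was -3.63. The share of members called was close to that of all genes. The 10 were DDX11, DDX54, DDX39A, DHX34, DDX56, DHX38, DDX24, DDX23, DHX16 and DDX21, with adjusted p between 0.0407 and 0.0499. The other 23 members did not pass the filter on low counts. None of the 10 passed without G20 or without HuR replicate 2, and 4 members did without HuR replicate 1. Under DESeq2 25 members were called lower, and without scaling factors 0. The median of all regions tested was 0.25 on the log2 scale, and it was 1.97 without scaling factors.

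DDX23 is a helicase of the spliceosome. It had 191, 123 and 65 coding reads in G20, G35 and G45, 14 and 67 in HuR replicates 1 and 2 and 356 in Total. After scaling, both HuR libraries were below all slices, and its log2 fold change was -4.82 (SE 0.83, edgeR adjusted p = 0.0407). DDX54, of ribosome assembly, had 234, 27 and 15 in the slices, 4 and 12 in HuR and 339 in Total, with a log2 fold change of -6.34 (SE 1.32). DDX39A, a relative of DDX39B in mRNA export, had 187, 22 and 6 in the slices, 2 and 16 in HuR and 441 in Total, with a log2 fold change of -6.14 (SE 1.42). DDX11 had 41, 12 and 11 in the slices, 0 and 5 in HuR and 55 in Total. Its fitted log2 fold change of -6.39 (SE 1.46) rests on few HuR reads and gives no bound.

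Coding reads were not low in HuR for all members before scaling. DDX39B had 412, 99 and 81 coding reads in the slices, 20 and 1342 in HuR and 544 in Total, and its fold change of -2.03 (SE 0.99) did not pass the test (edgeR adjusted p = 0.176). A site of 390 bases at chr6:31502083-31502472, the coding site with the most HuR reads that both replicates shared, held 1056 of the 1342 reads in HuR replicate 2, and 28.9% of the coding reads of all members in that library. Its midpoint fell in a coding exon of 26 bases (chr6:31502263-31502288) that 1 annotated transcript has, and the rest of the site lies outside annotated coding sequence. Sites that overlap it held 86 reads in HuR replicate 1 and 72 in Total, all counted as intron by their midpoints, and 86, 20 and 31 in the slices, of which 0, 5 and 19 were counted as coding. Without these sites the coding share of the helicase reads was 3.24% and 2.37% in HuR, still below all 3 slices. When a whole site had to lie in 1 region, the DDX39B coding sequence was called lower in HuR (log2 fold change -4.29, edgeR adjusted p = 0.0347). DDX3X had 70, 11 and 33 coding reads in the slices, 23 and 248 in HuR and 858 in Total (log2 fold change -1.63, SE 0.92, edgeR adjusted p = 0.240).

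In 3'UTRs, 1 of 16 members tested was called higher in HuR and 0 lower, where 1.01% of all 5152 3'UTRs tested were called higher and 1.44% lower. The member was DDX18, with a log2 fold change of 3.98 (SE 1.11, edgeR adjusted p = 0.0485). At an unadjusted p under 0.05 there were 2, and no member passed without G20 or without HuR replicate 2. The members' median log2 fold change was 0.73, with 14 above 0 and 2 below, and that of all 3'UTRs was 0.92. The fold changes of DDX17 (1.35, SE 0.65, edgeR adjusted p = 0.176), DDX3X (1.35, SE 0.72, edgeR adjusted p = 0.216) and DDX5 (2.02, SE 0.81, edgeR adjusted p = 0.110) did not pass. DDX6 had 0.22 (SE 0.70, edgeR adjusted p = 0.850). With each site counted once 3 of 5 members tested, DDX6, DDX17 and DDX19A, were called lower in HuR. In 5'UTRs 2 members were tested and 0 were called, against 18.6% of all 612 called lower and 0.163% higher, and 0 members had an unadjusted p under 0.05.

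In introns, 4 of 46 members tested were called lower, where 2.14% of all 11897 introns tested were, and 1 was called higher, where 2.32% were. The members' median log2 fold change was 0.80, against 0.55 for all. The member called higher was DDX6 (log2 fold change 2.57, SE 0.70, edgeR adjusted p = 0.0465), with 25, 11 and 16 intron reads in the slices, 205 and 2196 in HuR and 309 in Total. No member's intron was called higher without G20, without G35 or without HuR replicate 2, 2 were without G45 and 11 without HuR replicate 1. An unadjusted p under 0.05 was reached by 16 members' introns.

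**Figure D3:**
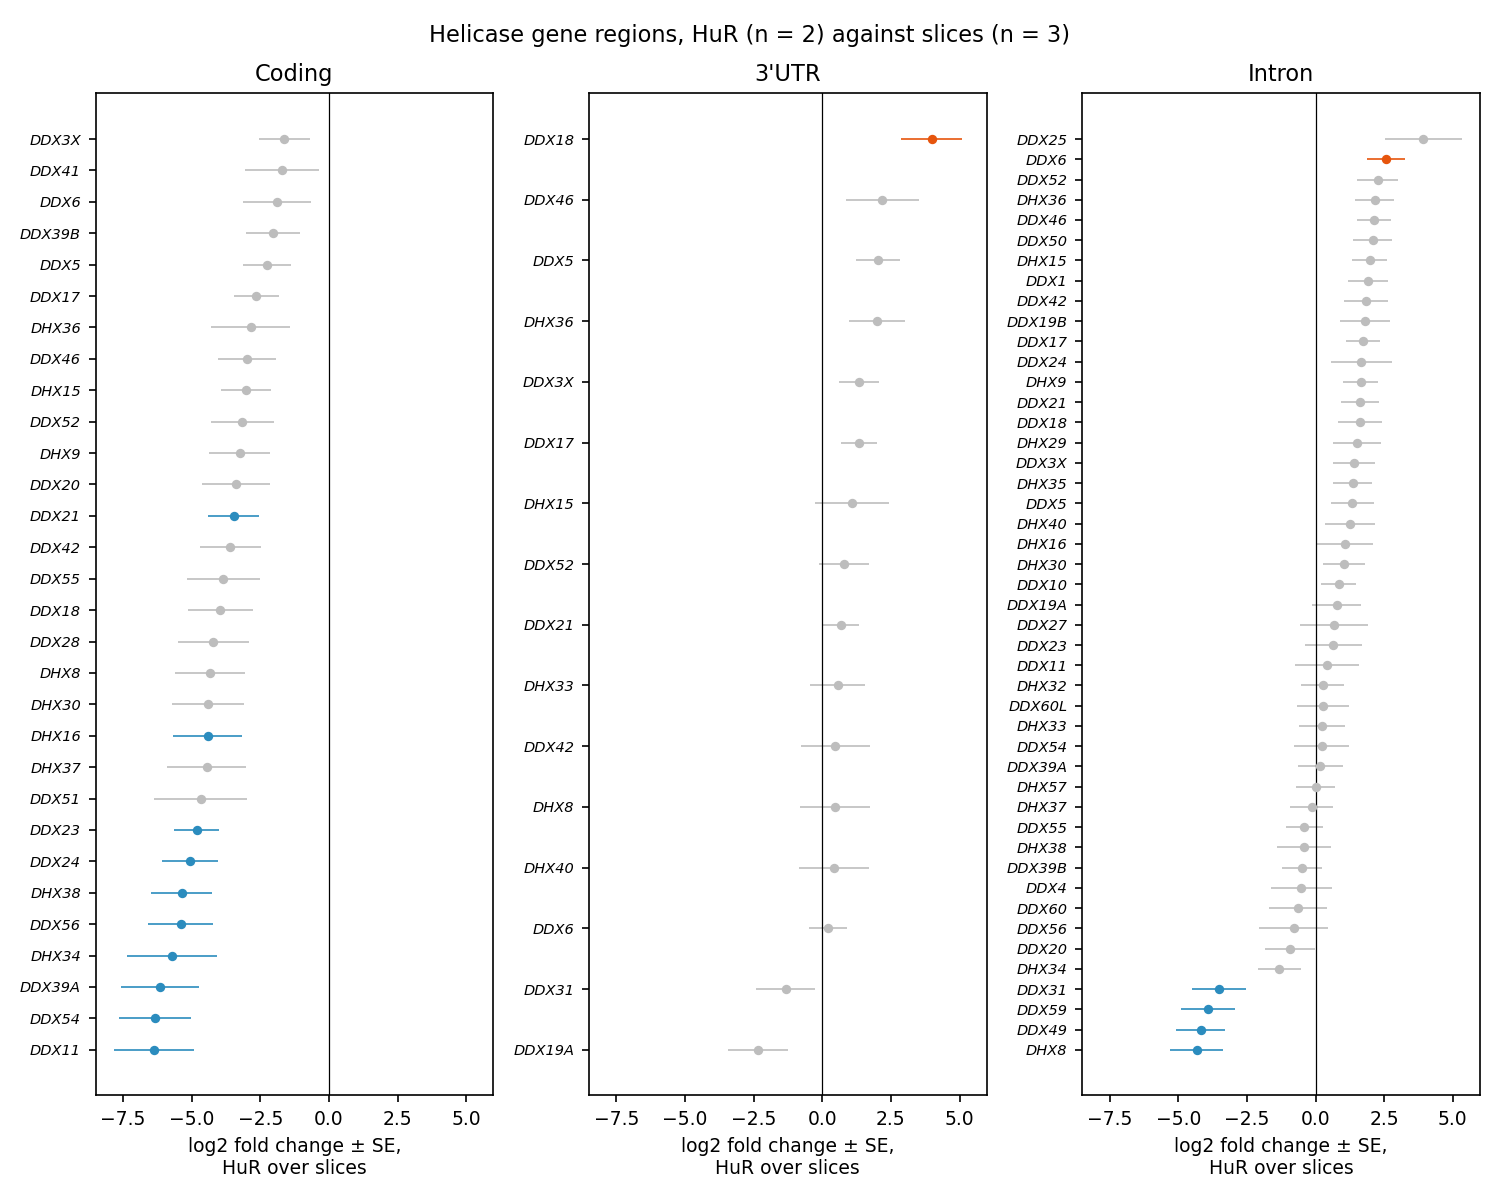
log2 fold change of HuR (n = 2) over the slices (n = 3), with its standard error (horizontal axis), for each helicase gene tested in coding sequence (30 genes), 3'UTR (16) and intron (46); blue marks calls lower in HuR, orange calls higher, grey no call. All 30 coding values are below 0, and the 4 blue introns are DDX31, DDX59, DDX49 and DHX8.

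The introns called lower were those of DHX8, which acts late in splicing, DDX49 and DDX31, of ribosome assembly, and DDX59. In each, reads at the single site printed above made up most of the slice reads. DDX31 had 1154, 2697 and 3767 reads at its site in G20, G35 and G45, 291 and 2213 in HuR and 6 in Total, and 88, 20, 45, 345, 2319 and 718 reads at all its other intron sites in the same order. DHX8 had 607, 1912 and 1675 reads at its site in the slices, 70 and 927 in HuR and 41 in Total. DDX59 had 521, 1555 and 1798 in the slices, 88 and 1234 in HuR and 0 in Total, where a count of 0 allows up to 3 reads. DDX49 had 51, 77 and 215 in the slices, 16 and 96 in HuR and 1 in Total. These sites were seen in all 3 slices and both HuR libraries, with few reads in Total, where the other intron sites of DDX31, DHX8 and DDX59 had 718, 148 and 120.

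The share of the gene's intron reads at the site was 92.9% to 99.3% in the slices for DDX31, 94.0% to 99.3% for DHX8, 98.7% to 99.2% for DDX59 and 81.0% to 100% for DDX49. In HuR it was 45.8% and 48.8% for DDX31, 37.4% and 61.6% for DHX8 and 50.3% and 58.2% for DDX59, all below the slices. For DDX49 it was 76.2% and 86.5%, and the second lay within the range of the slices. The fold changes of these introns were -4.33 (DHX8, SE 0.98), -4.18 (DDX49, SE 0.89), -3.92 (DDX59, SE 0.99) and -3.51 (DDX31, SE 0.99), with edgeR adjusted p from 0.0407 to 0.0494. Each rested on 1 site. No member's intron was called lower without G20, without either HuR replicate or without scaling factors, 2 were without G35 and 1 was without G45.

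**Figure D4:**
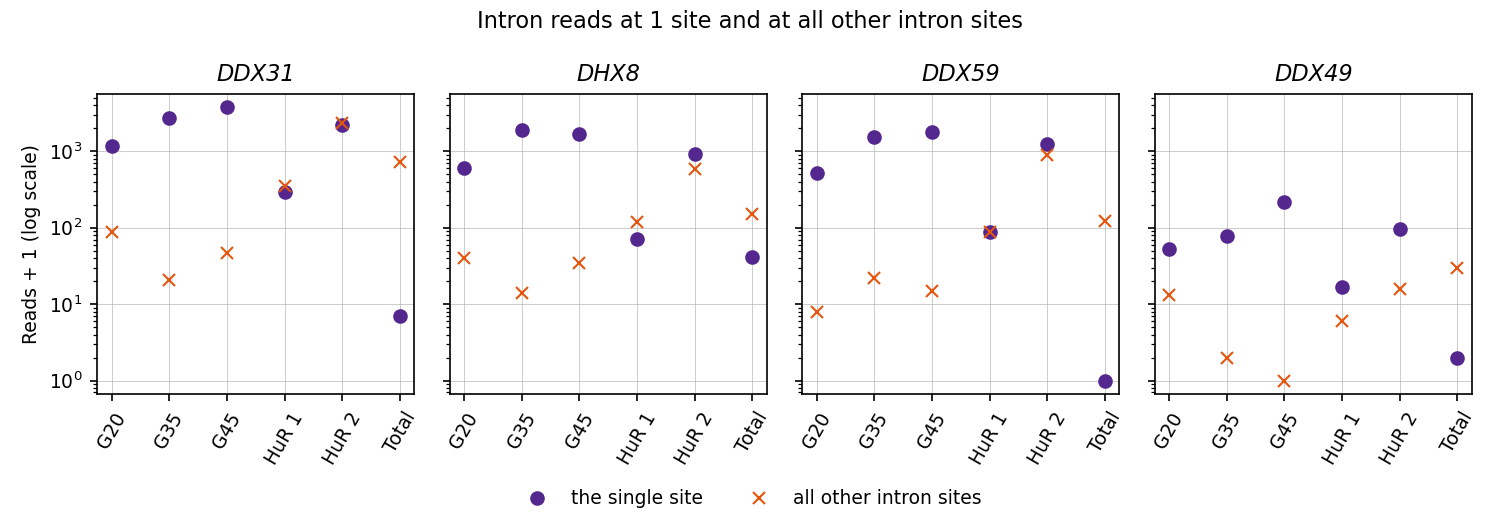
Reads plus 1 (log scale, vertical axis) in each library (horizontal axis) at the single intron site with the most slice reads (filled circles) and at all other intron sites (crosses) of DDX31, DHX8, DDX59 and DDX49. In the slices the site is above the crosses in all 4 genes, and in Total it is below them.

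Together the 4 sites held 23.6% of all helicase reads in G20, 69.6% in G35 and 72.5% in G45, against 4.06% and 4.04% in HuR and 0.0977% in Total. When they were left out, an alternative chosen after values were seen, introns held 30.4%, 47.3% and 46.6% of helicase reads in the slices, 75.6% and 65.9% in HuR and 36.4% in Total, so that both HuR libraries were then above all 3 slices. Coding sequence then held 52.3%, 29.9% and 23.6% in the slices and 3.35% and 3.44% in HuR. The 3'UTR held 14.7%, 21.3% and 28.9% in the slices and 20.2% and 30.2% in HuR, so that the 3'UTR shares of the groups overlapped.

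Conversions at these sites were dense and at few positions. At the DDX31 site there were 1052 events at 1 position in G20, 2551 at 2 in G35, 3543 at 1 in G45, and 232 and 1960 at 1 position in HuR. At the DDX49 site, which holds a single T, each of the 51, 77 and 215 slice reads and of the 16 and 96 HuR reads carried 1 event. DHX8 had from 94.3 to 100 events per 100 reads over the slices and HuR, and DDX59 from 96.6 to 99.8. In Total, with no protein purified, DHX8 had 41 events in 41 reads, DDX49 1 in 1 and DDX31 2 in 6, and DDX59 had 0 reads. The DHX8 site was thus as densely converted in Total as in the slices, where all helicase sites of Total had 17.8 events per 100 reads. The DDX23 coding site had 27, 90 and 52 reads in the slices, 12 and 42 in HuR and 0 in Total, and its events came to 189, 200 and 181 per 100 reads in the slices and 158 and 200 in HuR, at 2 positions in each. A read can carry more than 1 event. At the DDX17 3'UTR site of the window above the events lay at more positions, with 25 at 12 positions in G20, 34 at 8 in G35, 64 at 15 in G45, 202 at 23 in HuR replicate 1 and 2824 at 21 in replicate 2.

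Over all helicase sites there were 41.7 conversion events per 100 reads in G20, 90.9 in G35, 85.8 in G45, 90.7 in HuR replicate 1, 102.3 in HuR replicate 2 and 17.8 in Total. G20 was between Total and the other libraries, and HuR replicate 1 was within the range of the slices. The 4 densely converted intron sites above held 23.6%, 69.6% and 72.5% of helicase reads in G20, G35 and G45, against 4.06% and 4.04% in HuR. They weigh on the slice values, and rates without them were not computed. Of sites with a single read, 24.9%, 61.9% and 58.4% carried a conversion in the slices, 84.0% and 79.1% in HuR and 25.5% in Total. In 3'UTRs the HuR libraries stood apart, with 95.9 and 101 events per 100 reads against 25.5, 47.2 and 44.2 in the slices and 21.4 in Total. In coding sequence the order did not follow the groups, with 21.0, 101 and 77.7 in the slices, 70.9 and 98.7 in HuR and 13.1 in Total.

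The T content of the RNA was read in windows of 30 bases around the midpoint of every helicase site, and all 22755 site sequences in the files matched GRCh37. In introns 15.5% of sites in HuR replicate 1 (95% interval 14.4 to 16.6) and 22.99% in replicate 2 (22.01 to 24.0) held the motif TTTTT on the gene's strand. The slices G20, G35 and G45 had 8.09% (6.49 to 10.03), 20.8% (16.3 to 26.1) and 29.04% (24.4 to 34.1), and Total had 10.8% (9.99 to 11.7). Windows of the same length tiled over the members' introns held it in 11.6%. In 3'UTRs the shares were 16.9% and 18.2% in HuR, 10.5%, 25.8% and 27.8% in the slices and 9.15% in Total, against 9.24% of tiled windows. In both regions both HuR libraries were above Total and G20. Counted by sites, in 3'UTRs both were below G35 and G45, and in introns replicate 1 was below both and replicate 2 between them. Counted by reads, intron windows with TTTTT held 14.3% and 27.6% in HuR and 3.68%, 2.87% and 3.93% in the slices. The 4 intron sites above held 50.5%, 82.9% and 85.0% of the slices' intron reads. By reads the 3'UTR values were 16.3% and 13.4% in HuR and 13.3%, 30.6% and 36.0% in the slices. Among 3'UTR sites with at least 5 reads, 28.4% and 19.4% in HuR held it, against 12.2%, 27.3% and 36.1% in the slices. In coding sequence TTTTT was in 2.31% and 5.51% of HuR sites, 0.595%, 1.30% and 1.09% of slice sites, 1.13% of Total sites and 2.71% of tiled windows.

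**Figure D5:**
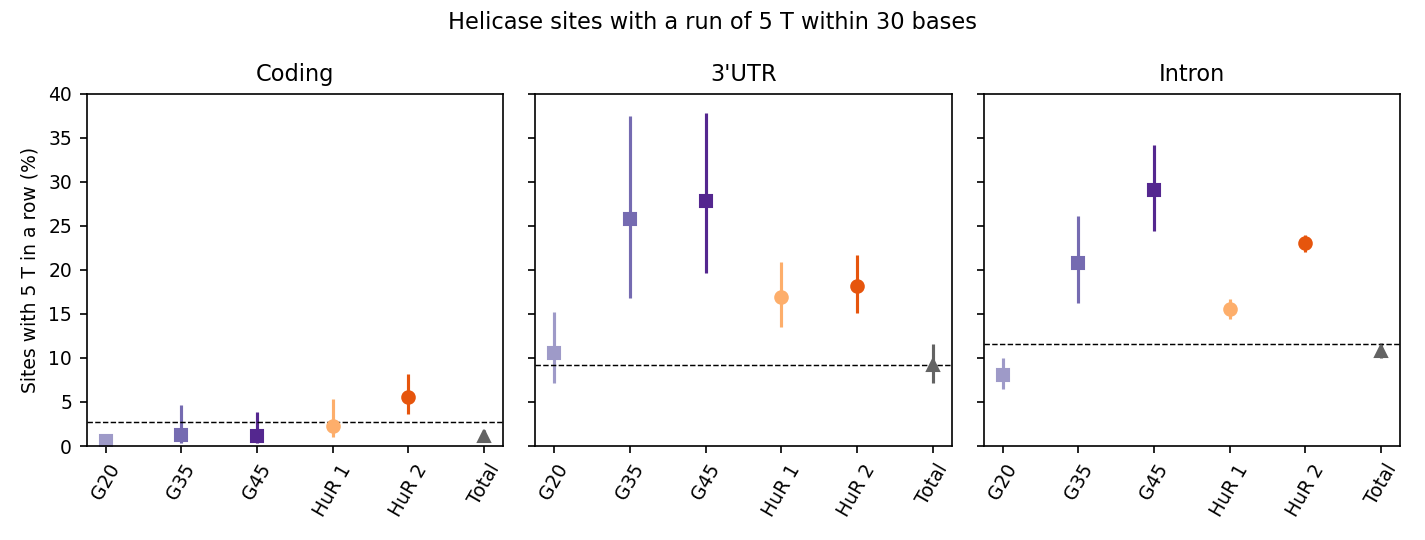
Share of helicase sites (%, vertical axis) whose window of 30 bases holds TTTTT, by library (horizontal axis) and region, with 95% Wilson intervals; dashed lines are windows tiled over the members' own regions. In 3'UTRs G35 and G45 are above both HuR libraries, in introns G45 is above both and G35 lies between them, and G20 and Total lie near the dashed line or below it.

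G content ran the other way in the slices. In introns the mean over sites was 31.2% G in G20, 25.5% in G35 and 21.5% in G45, against 19.6% and 19.7% in HuR, 16.7% in Total and 21.4% in tiled windows. In 3'UTRs it was 27.5%, 25.1% and 22.6% in the slices, 18.4% and 19.8% in HuR and 19.8% in Total, against 21.6% in tiled windows. All 3 slices were above both HuR libraries in both regions. This order did not hold for sites with at least 5 reads. There the introns had 35.7%, 23.9% and 18.5% in the slices and 20.3% and 18.7% in HuR. The 3'UTRs had 30.3%, 25.4% and 19.17% in the slices and 17.5% and 19.20% in HuR.

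HuR reads of the helicase genes were then set against the background sites. A HuR site was counted as overlapping when it shared at least 1 bp on the same strand with a site of any slice. Such sites held 40.6% of HuR helicase reads in replicate 1 (95% interval 39.7 to 41.5) and 47.5% in replicate 2 (47.2 to 47.8), but were 15.1% and 13.4% of the sites. Over all protein-coding genes they held 50.2% and 24.8% of HuR reads and were 9.10% and 8.46% of the sites. By reads the helicase genes were thus below all genes in replicate 1 and above in replicate 2, and by sites they were above in both. In 3'UTRs the overlapping sites held 71.1% and 83.8% of HuR reads, against 49.7% and 49.6% in all protein-coding genes. In coding sequence they held 66.3% and 72.0%, against 86.2% and 61.9% in all genes, and in introns 31.6% and 30.5%, against 46.1% and 19.9%. No test was made of these shares. The DDX17 3'UTR site, the helicase site with the most HuR reads, was among them, with 50, 61 and 102 slice reads against 191 and 2712 in HuR and 31 in Total. The DDX18 window had 0, 0 and 6 slice reads against 5 and 849 in HuR and 21 in Total. The DDX46 intron window, in a gene of early spliceosome assembly, had 0 reads in every slice, 22 and 299 in HuR and 58 in Total.

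The HuR replicates shared many helicase sites. Of 4839 sites in replicate 1, 53.03% overlapped a site of replicate 2, and these held 73.3% of its reads. Of 7844 in replicate 2, 31.6% overlapped a site of replicate 1, with 69.4% of its reads. Between slices, 5.47% of the 2047 G20 sites, 21.1% of the 492 G35 sites and 17.3% of the 619 G45 sites were found in both of the others. Among sites with at least 25 reads these were 10 of 34, 10 of 17 and 10 of 15. Sites of a single read made up 66.1% of the sites in HuR replicate 1 and 9.34% in replicate 2.

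Introns held most HuR reads in members of most roles. Among the 10 genes of the spliceosome, introns held 90.2% and 86.9% of HuR reads, against 51.2%, 85.3% and 85.9% in the slices and 46.5% in Total. DHX15 had 108, 108 and 98 intron reads in the slices, 878 and 9040 in HuR and 1688 in Total, with a log2 fold change of 1.97 (SE 0.63, edgeR adjusted p = 0.0633). DDX46 had 66, 64 and 59 in the slices, 586 and 5965 in HuR and 1032 in Total (2.11, SE 0.62, edgeR adjusted p = 0.0526). DDX39B had 547, 126 and 111 in the slices, 473 and 2986 in HuR and 1754 in Total, with a fold change of -0.49 (SE 0.72) that became positive when sites at small RNA genes were left out. In the introns and exons of DDX39B lie the small nucleolar RNAs SNORD117 and SNORD84, with 257, 34 and 28 reads at SNORD117 in the slices, 11 and 64 in HuR and 344 in Total. Of the spliceosome genes tested, 3 of 9 coding regions and 1 of 9 introns were called lower, and 0 of 4 3'UTRs were called. Over all genes 31.8% of coding regions and 2.14% of introns were called lower.

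Among the 15 genes of ribosome assembly, 4 of 9 coding regions tested and 2 of 13 introns were called lower, and 1 of 5 3'UTRs, that of DDX18, was called higher. Over all genes these shares were 31.8% of coding regions, 2.14% of introns and 1.01% of 3'UTRs. The 3'UTR share of the 15 genes was 8.22%, 2.44% and 2.78% in the slices, 13.6% and 22.6% in HuR and 18.2% in Total. DDX21 had 64, 35 and 65 reads in its 3'UTR in the slices, 141 and 2091 in HuR and 678 in Total, which did not pass the test (log2 fold change 0.67, SE 0.68, edgeR adjusted p = 0.519). Its coding reads were 207, 53 and 29 in the slices, 18 and 159 in HuR and 1591 in Total, and were called lower (-3.47, SE 0.92, edgeR adjusted p = 0.0449). DDX10 had 76, 137 and 150 intron reads in the slices, 632 and 4110 in HuR and 838 in Total, and did not pass (0.84, SE 0.65). The introns of DDX47 had 5, 5 and 4 reads in the slices, 4 and 121 in HuR and 30 in Total, and were not tested.

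The 8 genes of export, translation and decay had 2 of 5 coding regions called lower (DDX39A and DHX34), 1 of 8 introns called higher (DDX6) and 0 of 4 3'UTRs called. Over all genes 31.8% of coding regions were called lower and 2.32% of introns higher. The 3'UTR share of the 8 genes was 39.2%, 56.8% and 60.6% in the slices, 39.8% and 53.3% in HuR and 43.3% in Total, so that the groups overlapped, and DDX6 held most of these reads. DHX36, which unwinds G-quadruplexes, had 22, 49 and 39 intron reads in the slices, 330 and 3945 in HuR and 507 in Total (2.16, SE 0.70, edgeR adjusted p = 0.0654).

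The 5 genes of transcription and several functions (DDX1, DDX5, DDX17, DDX20 and DHX9) had no region called among 4 coding regions, 2 3'UTRs and 5 introns tested. Over all genes 31.8% of coding regions and 2.14% of introns were called lower, and 2.32% of introns higher. DHX9 had 81, 94 and 71 intron reads in the slices, 554 and 5674 in HuR and 1291 in Total (1.64, SE 0.62, edgeR adjusted p = 0.0971), and in its 3'UTR 0 in every slice, 8 and 79 in HuR and 129 in Total. DDX17 introns had 186, 119 and 92 reads in the slices, 1180 and 7854 in HuR and 3091 in Total (1.74, SE 0.62, edgeR adjusted p = 0.0809). The intron log2 fold changes of DDX1 (1.93) and DDX5 (1.35) were also above 0, and that of DDX20 was below 0 (-0.93, SE 0.91, edgeR adjusted p = 0.503). The median over all introns tested was 0.55.

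DHX30, a helicase of mitochondrial ribosome assembly, had 219, 5 and 27 coding reads in the slices, 5 and 79 in HuR and 940 in Total, and did not pass (-4.41, SE 1.32, edgeR adjusted p = 0.0553). The 4 germline members and 3 antiviral members (DDX60, DDX60L and DHX58) had 0 regions called, with 2 introns of each group tested. Over all genes 2.14% of introns were called lower and 2.32% higher.

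For comparison, 20 other RNA helicases outside the DDX and DHX names, such as EIF4A1, UPF1 and MOV10, were read the same way. Of their 16 coding regions tested, 5 were called lower (EIF4A1, EIF4A3, HELZ2, SNRNP200 and UPF1), of 11 3'UTRs none was called, and of 17 introns 2 were called lower and 1 higher. Over all genes 31.8% of coding regions and 2.14% of introns were called lower, and 2.32% of introns higher. The median log2 fold changes of these other helicases were -2.73 in coding sequence, 0.66 in 3'UTRs and 1.71 in introns. All of these calls rested on 2 HuR libraries and 3 unlike slices, and most depended on the setting, as the values below show.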

How the data were processed

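PAR-CLIP libraries of 6 samples were analysed from the site tables the authors deposited. By the study's methods, reads of at least 10 bases were aligned to hg19 with Bowtie, allowing up to 2 mismatches and 10 places, and PARalyzer, run with its standard settings, kept uniquely mapping reads with at most 2 T-to-C mismatches. The deposited counts are whole-number read counts and conversion event counts per site, not normalised, with one file of all sites with any read (groups, used here) and one of sites with at least 5 reads and 2 conversion positions (clusters, an alternative). Bowtie and hg19 are also named in the submitters' processing notes, and versions are not given in the sources used here.

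Each site was placed by its midpoint in a gene of GENCODE v44lift37, by the order coding, 3'UTR, 5'UTR, other exon, intron; other exons of a gene count as intron here, and sites shared equally by genes were left out (at most 0.401% of reads). HuR (n = 2) was compared with the slices (n = 3) by edgeR 4.0.16 (quasi-likelihood, TMM scaling, filterByExpr, adjusted over all regions) in R 4.3.3. The SE printed with a log2 fold change was derived from that test, as the absolute log2 fold change divided by the square root of the F statistic. Total entered no test. DESeq2 1.42.0 was an alternative. Scaling factors ran from 0.178 (G20) to 2.32 (HuR replicate 2), so fold changes rest on a wide correction. Shares have 95% Wilson intervals (scipy 1.17.1), and a count of 0 allows 3 reads. Unique mapping leaves out reads from repeated copies.

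Named genes were the 12 with the highest mean level, the 4 largest called changes in each direction for coding sequence, 3'UTR and intron, 9 well-known members (DDX3X, DDX5, DDX6, DDX17, DDX21, DDX39B, DHX9, DHX15 and DHX36) and any with no reads; other genes named were chosen after their values were seen. The members and lists were chosen with earlier results of these data known. The alternatives were other tables, read minimums, scaling, filters, region rules and left-out libraries. A gene of the marker list is not reported here.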

Additional observations from a re-analysis of the deposited data

How the results depend on the processing

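The calls of the edgeR test depended strongly on the setting. The counts were 10 members lower in coding sequence, 1 higher in 3'UTR, 1 higher in intron and 4 lower in intron. DESeq2 gave 25 lower in coding sequence and 8 higher in intron, with the other counts unchanged. Counting each site once gave 25 lower in coding sequence, 11 higher in intron, 0 higher in 3'UTR and 3 lower in 3'UTR. The clusters tables gave 0 lower in coding sequence, 0 higher in 3'UTR and 0 lower in intron. Sites with 5 or more reads, and sites with conversion events, gave 0 for all 4 counts. Without scaling factors 0 were lower in coding sequence and 0 in intron, so that the split of calls moved to 2 higher and 0 lower from 2 higher and 14 lower. Without a filter 6 were higher in intron, with other exons left out 0 were higher in 3'UTR, and with the whole site in 1 region 2 were higher in intron. Leaving out 1 library gave 0 to 13 lower in coding sequence, 0 to 2 higher in 3'UTR, 0 to 11 higher in intron and 0 to 2 lower in intron. Where 1 HuR library was left, it was assumed to vary like the slices. The cause of these changes was not tested.

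The count of members whose 3'UTR share was above all slices in both HuR libraries (14 of 15) was 5 of 8 with the clusters tables (38.1% of all genes), 7 of 9 with sites of 5 or more reads (38.2%), 2 of 4 with each site counted once (74.3%), 21 of 27 with at least 5 reads in each library (53.7%) and 7 of 8 with at least 20 (65.8%). With each site counted once the members' share was below that of all genes. The count was 14 of 15 without G20 (62.5% of all genes), 15 of 17 without G35 (71.4%) and 17 of 18 without G45 (69.8%). It was 19 of 20 without HuR replicate 1 (70.8%) and 14 of 15 without HuR replicate 2 (63.3%). These settings were chosen after seeing the data.

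For the region shares, given as coding, 3'UTR and intron, the clusters tables gave 1.30%, 35.8% and 62.3% in HuR and 45.3%, 25.3% and 27.6% in Total, where the values as reported had means of 3.26%, 24.2% and 71.9% in HuR and 42.4%, 19.4% and 36.5% in Total. Sites with 5 or more reads gave 2.43%, 32.2% and 64.7% in HuR and 48.4%, 22.1% and 27.9% in Total. Each site counted once gave 4.78%, 7.53% and 86.8% in HuR, 19.1%, 9.49% and 69.7% in Total and 13.0% for the slice 3'UTR. With other exons left out HuR coding sequence held 3.89%, and Total 48.7%, 22.3% and 27.2%. With the whole site in 1 region HuR coding sequence held 2.55%, and Total 41.1%, 20.0% and 37.5%. Without the site with the most reads HuR coding sequence held 3.34%, the slice 3'UTR 11.5%, Total coding sequence 41.7% and Total introns 36.9%. With sites at small RNA genes left out, an alternative chosen after seeing the data, Total held 43.0% in coding sequence and 35.6% in introns. Without the sites that overlap the DDX39B coding site, also chosen after seeing the data, HuR coding sequence held 2.81%. Other settings moved these shares by less than 1 SD, or stayed within the interval of Total.

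The helicase share of reads in Total (5.72 per 1000) was 7.13 in the clusters tables, 7.01 with 5 or more reads, 3.40 with each site counted once, 5.17 with other exons left out, 5.87 without small RNA genes and 5.65 without the site with the most reads. Conversion events in Total (17.8 per 100 reads) were 19.2 in the clusters tables and 16.2 with 5 or more reads. HuR reads at sites that overlap background (mean 44.0%) were 36.2% in the clusters tables, 34.4% when at least 50% of the HuR site had to overlap, 29.9% against background sites of 5 or more reads, 14.3% with each site counted once, and 35.2% to 41.9% without 1 slice.

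Among single gene regions, counting each site once reversed the 3'UTR values of DDX6 (-1.76, edgeR adjusted p = 0.00261), DDX17 (-2.04, edgeR adjusted p = 0.00349), DDX3X (-0.66) and DDX21 (-0.78) and the intron values of DDX59 (0.80), DDX31 (0.69), DDX5 (-0.98) and DDX17 (-0.45). No scaling reversed the coding values of DHX36 (0.12), DDX5 (0.033), DDX39B (0.15), DDX6 (0.62) and DDX3X (0.39) and the DDX39B intron (1.67). The DDX39B intron was also positive with no filter (0.31) and without small RNA genes (0.38). DDX6 3'UTR was negative with the clusters tables (-0.23), 5 or more reads (-0.26), conversion events (-0.51) and without G20 (-0.32). Leaving out 1 library gave -0.80 to 1.58 for DDX6 3'UTR, -0.050 to 1.93 for DDX21 3'UTR, -0.49 to 4.07 for DHX15 3'UTR and -0.41 to 0.39 for the DDX39B intron, the lowest without HuR replicate 2 in each.

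No paired analysis was possible because only the HuR libraries carry replicate numbers in the labels, and the slices are different cuts of a gel. Depth limits the slices most, where the median member had 29 reads in G35 and 32 in G45.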

Other observations

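Small RNA genes lie inside several helicase genes and took some of their reads. SNORD84 in DDX39B had 130, 17 and 17 reads in G20, G35 and G45, 11 and 103 in HuR replicates 1 and 2 and 216 in Total. SNORA9 in DDX55 had 55, 2 and 4 reads in the slices, 0 and 5 in HuR and 6 in Total. At MIR3064, a microRNA gene in DDX5, there were 8, 3 and 0 reads in the slices, 11 and 240 in HuR and 38 in Total, so that HuR replicate 2 was highest there.

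DDX25, a helicase of germ cells, had 85 intron reads in HuR replicate 1, against 0, 1 and 2 in the slices, 74 in HuR replicate 2 and 8 in Total. A single intron site at chr11:125774024-125774040 held 74 of the 85 reads with 0 conversion events and had 1 read in G45 and 0 in each of the other libraries. This site was chosen after its values were seen.

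The helicase coding site with the most reads in Total was at chr22:38890669-38890753 in DDX17, with 607 reads there, 18, 14 and 3 in the slices, and 0 and 3 in HuR. The most read slice site of a helicase 3'UTR was in DDX6 at chr11:118618859-118618909, with 139, 48 and 47 reads in the slices, 23 and 522 in HuR and 17 in Total. Its conversion events were 22, 6 and 17 in the slices and 17 and 527 in HuR.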
